A study of Homo sapiens with 12 samples.

Results

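The comparison described here set 3 RAC1 knockout clones against 3 RAC1-positive lines within the second of 2 batches of DU145, a human prostate cancer cell line in wide use, grown in RPMI medium with 10% fetal bovine serum. It used 6 of the 12 libraries of the series, and of the 56832 genes in the deposited table the 17699 genes with a mean of at least 1 TPM, a transcript abundance scaled to gene length and library total, in either group. The gene just inside that limit, AC023480.1, had 1.000127 TPM in its higher group, and the gene just outside, RP11-5O17.1, had 0.999846. The RAC1-positive lines, all labelled wild type, were the uncloned parental line and sgNTC clones 1 and 2, which share the guide label sgNTC_1. The knockout lines were sgRAC1 clone 1, made with guide sgRAC1_1, and sgRAC1 clones 2 and 3, both made with guide sgRAC1_2. All 5 clones came from transfection with Cas9 and a guide RNA followed by growth from single cells, so each clone is 1 cell's descendants and only the parental line is a mixed population. The series title links RAC1 to VAV2, one of its exchange factors, and to the receptor EGFR.

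RAC1 is a small GTPase, a molecular switch. It is active when bound to GTP, which exchange factors such as the VAV proteins load onto it, and active RAC1 recruits the WAVE complex to start branched actin growth at the cell edge. Cells that lack it are known for altered spreading, adhesion and migration.

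The batch 2 libraries listed between 20470 and 25156 genes above 0, and correlations on the log2(TPM + 1) scale were 0.948 to 0.953 among knockout lines, 0.936 to 0.959 among positive lines and 0.935 to 0.945 between the groups. Sequencing depth is unknown because TPM sums to 1000000 in every library. Each line gave 1 library per batch, so the line is the replicate. The spread behind the p-values thus holds differences between lines and between libraries, which cannot be told apart. The same 6 lines were also sequenced in batch 1, where sgNTC clone 2 stood apart with 13608 genes above 0 and a median correlation of 0.892. All 5 epithelial markers were above 1 TPM, while the prostate markers KLK3, KLK2 and TMPRSS2 were listed at 0 in every library.

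The targeted gene was measured first. RAC1 (chromosome 7, 6374523 to 6403977, GRCh38) stood at 170 TPM in the parental line, 149 in sgNTC clone 1 and 152 in sgNTC clone 2. The knockout clones 1, 2 and 3 held 36.5, 54.2 and 40.3 TPM, all below every positive line. In log2(TPM + 1) RAC1 fell by 1.84 (SE 0.16, 95% interval -2.22 to -1.46, limma adjusted p = 0.032), from 157 ± 11.1 to 43.7 ± 9.32 TPM (SD, n = 3 lines each), so 27.8% of the positive level remained. Permuting the 6 values over the groups exactly, two-sided, gave p = 0.10, which is as low as 3 against 3 allows. The adjusted p was 0.065 to 0.201 when any 1 library was left out, with differences of -2.00 to -1.72. In batch 1 the groups were also apart, by -1.93. As in any bulk sample, fewer cells expressing a gene and less RNA per cell cannot be told apart.

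Across all genes, limma on log2(TPM + 1) with Benjamini-Hochberg adjustment at 0.05 called 26 of 17699 genes (0.147%). Of these, 20 were higher in the knockout lines (0.113%) and 6 were lower (0.0339%). With median-of-ratios scaling the split was 9 higher and 5 lower. The calls comprised 13 protein-coding genes, 7 small RNA genes, and 6 other noncoding or unmatched symbols. Leaving out the parental line kept 2 calls, MIR6724-3 and SAT1, and leaving out any 1 of the other 5 libraries kept 0. Over 8 other settings of pseudocount, level filter, scaling, trend and weights, MIR6724-3 passed in all 8 and RAC1, SAT1 and TSPAN7 in 7. SERPINA1, CDA, CASP8, HCP5, RP1-261D10.2 and RP11-366M4.2 passed in 3 of the 8, and RP11-68I3.5 and SNORA74D in 3 of the 7 that kept them. For SERPINA1 the adjusted p ran from 0.0154 with limma array weights to 0.0939 with no level filter. A looser description is whether all 3 knockout values lay on one side of all 3 positive values, called "apart" below. This held for 3637 genes (20.5%), 2238 of them higher (12.6%) and 1399 lower (7.9%). Unadjusted p was under 0.05 for 2458 genes, where 885 of 17699 would be 5%. The median difference of all genes was 0.02, with 52.5% above 0.

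Among the called protein-coding genes 12 were higher in the knockout clones and only RAC1 was lower. They covered a tetraspanin, enzymes of polyamine, nucleoside and peptide turnover, a kinase, a protease inhibitor and an immunoproteasome subunit. TSPAN7, a membrane protein of the tetraspanin family, changed most. It was at 1.25, 1.59 and 0.503 TPM in parental, sgNTC clone 1 and sgNTC clone 2, and at 16.8, 15.4 and 22.3 in knockout clones 1 to 3. All 3 clones stood far above all 3 positive lines, a difference of 3.20 (SE 0.26, limma adjusted p = 0.032). No other tetraspanin passed the threshold. Of the 19 kept, 17 had positive differences and 6 were apart upward (31.6%, beside 12.6% of all genes). Their median was 0.33 (0.21 with no level filter).

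**Figure D1:**
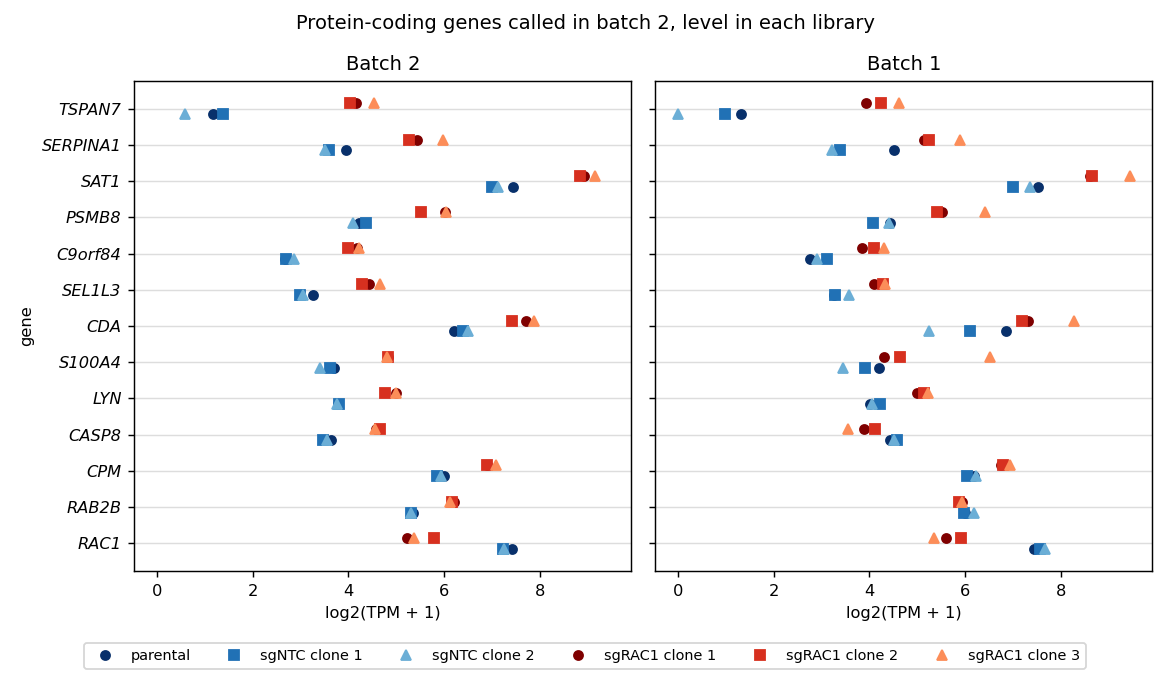
Level of the 13 protein-coding genes called in batch 2 as log2(TPM + 1) on the x axis, 1 point per library, batch 2 on the left and batch 1 on the right. Blue symbols are RAC1-positive lines and red symbols knockout clones. In batch 2 no gene overlaps between colours, and in batch 1 CASP8 and RAB2B have the knockout clones on the other side.

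SAT1, the acetyltransferase that starts the breakdown of spermidine and spermine, was the most abundant of the called genes that code for protein. Positive lines held 172, 128 and 138 TPM and knockout clones 484, 456 and 571. Every clone was thus far above every positive line, and SAT1 rose by 1.79 (SE 0.14, limma adjusted p = 0.032). The polyamine list of 12 kept genes split around it. With SAT1, 6 genes were apart upward (50%) and 3 downward (25%), among them the spermine oxidase SMOX at -0.63. Over all genes these shares were 12.6% and 7.9%. The list's median was 0.06, close to that of all genes. SAT1 was the 1 that passed the threshold.

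LYN, a Src family kinase, was at 12.8, 13.0 and 12.7 TPM in the positive lines and 31.0, 26.3 and 30.8 in the knockout clones. The positive lines lay close together, and LYN rose by 1.13 (SE 0.13, limma adjusted p = 0.0491). Of the 4 genes kept from the Src family list, CSK, the kinase that restrains this family, was apart in the other direction (-0.44) without passing the test, and the groups overlapped in the other two.

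SERPINA1, which encodes the secreted elastase inhibitor alpha-1 antitrypsin, was at 14.5, 11.1 and 10.4 TPM in the positive lines and 42.0, 37.5 and 61.6 in the clones. Clone 3 was highest, and SERPINA1 rose by 1.87 (SE 0.22, limma adjusted p = 0.0491). CPM, a membrane-bound carboxypeptidase, rose by 1.03 (SE 0.11, limma adjusted p = 0.0444), from 62.8, 56.4 and 59.8 TPM to 118, 118 and 135. CDA, the cytidine deaminase of pyrimidine salvage, rose by 1.29 (SE 0.15, limma adjusted p = 0.0491), from 73.1, 82.9 and 89.9 TPM to 209, 169 and 233. In each of these 3 genes the lowest clone stood well above the highest positive line.

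S100A4, a calcium-binding protein linked to cell motility, gave the tightest knockout values of the called protein-coding genes, 27.5, 27.3 and 27.1 TPM, against 12, 11.3 and 9.67 in the positive lines. It rose by 1.24 (SE 0.13, limma adjusted p = 0.0444). In batch 1 the same clones held 18.7, 24.0 and 90.4 TPM, so the close agreement of batch 2 was not seen there, though the groups were again apart. C9orf84, a meiotic recombination gene also called SHOC1, rose by 1.39 (limma adjusted p = 0.0444), from 5.35, 5.45 and 6.32 TPM to 17.1, 15 and 17.6. SEL1L3 rose by 1.35 (limma adjusted p = 0.0491), from 8.62, 6.98 and 7.32 TPM to 20.4, 18.6 and 24.2.

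Of the 13 called protein-coding genes, 11 were apart in the same direction in batch 1, where the libraries had no part in the calls but came from the same lines. Of all protein-coding genes apart in batch 2, 25.6% were apart in the same direction in batch 1. RAB2B and CASP8 were apart in the opposite direction. RAB2B, a small GTPase of vesicle traffic, had 39.7, 38.6 and 38.9 TPM in batch 2 positive lines and 72.6, 70.6 and 68.5 in the clones, a rise of 0.84 (SE 0.10, limma adjusted p = 0.0491). In batch 1 the positive lines held 63.1, 61.5 and 72.2 TPM and the clones 59.9, 57.9 and 60.0. Between the batches the positive lines thus differed more than the clones did.

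CASP8, the initiator caspase of death receptor signalling, showed the larger change of sign. Batch 2 positive lines held 11.4, 10.0 and 10.7 TPM and the clones 22.8, 24.3 and 22.6, a rise of 1.05 (SE 0.12, limma adjusted p = 0.0491). Batch 1 positive lines held 20.6, 22.8 and 21.9 TPM and the clones 13.7, 16.4 and 10.8, a difference of -0.65. The change between batches was 1.70 for CASP8 (limma adjusted p = 0.514) and 0.98 for RAB2B (limma adjusted p = 0.641). The authors' deposited table compares knockout with positive lines and does not say that it is limited to 1 batch. It is not known to leave out these 6 libraries, so it is no independent check of the calls. Of the 26 calls 18 have a row in the authors' deposited table, 16 with the same sign and 13 of these with an adjusted p under 0.05. In the authors' deposited table CASP8 has a log2 fold change of 0.23 (adjusted p = 0.653) and RAB2B 0.37 (adjusted p = 0.0791). Both values lie between the batch 2 and batch 1 differences of the same gene. Of the 16 caspases and death receptor genes kept, a list chosen after values were seen, 4 were apart upward (25%, beside 12.6% of all genes). These were CASP8, CASP4, FAS and CASP6, and BID was apart downward. CASP8 was the 1 past the threshold.

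The 7 called small RNA genes are 0.892% of the 785 kept, and none of them was apart in the same direction in batch 1. MIR6724-3, 1 of several near-identical copies on chromosome 21, had the smallest adjusted p of all genes (limma adjusted p = 0.00557). It was listed at 0 in the 3 positive lines and at 13.9, 13.2 and 10.4 TPM in the clones. In batch 1 it was at 6.34 TPM in the parental line, 13.3 in clone 3 and 0 in the other 4 libraries. MIR1254-1 was listed at 0 in the positive lines and at 4.41, 6.26 and 4.94 TPM in the clones. In batch 1 MIR1254-1 was at 15.04, 6.21 and 52.7 TPM in the positive lines and 14.1, 0 and 6.32 in the clones, so the groups overlapped. SNORA74D, a small nucleolar RNA, was likewise at 0 in the positive lines and at 3.03, 4.31 and 3.40 TPM in the clones.

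Downward, MIR1206 was at 10.9, 7.30 and 17.7 TPM in the positive lines and at 0 in every clone, and the U6 copy RNU6-611P was at 6.21, 4.14 and 5.02 TPM and at 0 in every clone. In batch 1 MIR1206 was above 0 in 2 libraries of each group, and RNU6-611P was at 0 in all 6. With no counts in the table, no fold is given against groups at 0.

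The values of several of these short or weakly detected genes kept fixed proportions between libraries. In knockout clones 1, 2 and 3 the ratio of MIR1254-1 to SNORA74D was 1.45 in each, that of the unmatched symbol RP11-68I3.5 was 1.04 in each, and that of AC015977.5 was 0.483 in each, equal to 4 significant digits. The ratio of MIR6724-3 to SNORA74D was 4.60 in clone 1 and 3.07 in clones 2 and 3, or 1.5 to 1 to 1. In the positive lines the ratio of MIR1206 to RNU6-611P was 1.76, 1.76 and 3.53, or 1 to 1 to 2. Equal or small whole numbers of reads would give such proportions, but this was not tested. Other low calls held less simple proportions, such as RP1-261D10.2 to SNORA74D at 2.5 to 1 to 1.89 in clones 1 to 3. A gene with the same read number in 3 libraries varies between them only by the scaling of each library, and the read numbers themselves were not used here. These ratios were computed after the values were seen. Genes shorter than 200 bases made up 718 of the genes kept and 7 of the calls (0.97%).

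The 6 other noncoding and unmatched calls were also below 20 TPM in every batch 2 library. HCP5, a noncoding gene among the class I genes of the major histocompatibility complex, rose by 1.68 (SE 0.19, limma adjusted p = 0.0491), from 1.23, 1.03 and 0.998 TPM to 5.99, 6.19 and 4.89. In batch 1 its groups overlapped. RP1-261D10.2 was at 3.32, 3.32 and 3.75 TPM in the positive lines and at 19.8, 11.2 and 16.7 in the clones, and of these 6 noncoding or unmatched symbols it was the 1 that was also apart in batch 1. RP11-68I3.5 was at 0 in the positive lines and at 3.17, 4.498 and 3.55 TPM in the clones. AC015977.5, RP1-15D7.1 and RP11-366M4.2 fell, with differences of -2.35, -3.16 and -1.72.

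MT-TA and MT-TY, the mitochondrial tRNA genes for alanine and tyrosine, were the only called small RNA genes above 20 TPM. Both lie on the light-strand side of the mitochondrial genome (minus strand in GENCODE, positions 5587 to 5655 and 5826 to 5891), in a run of 4 tRNA genes with MT-TN and MT-TC. Their gene sequences, from the GENCODE release 29 transcripts, show the templates of these 2 calls.
MT-TA: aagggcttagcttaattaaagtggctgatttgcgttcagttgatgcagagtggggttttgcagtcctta
MT-TY: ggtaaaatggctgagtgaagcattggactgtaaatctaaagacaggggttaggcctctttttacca

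MT-TA was at 243, 231 and 325 TPM in the positive lines and 780, 739 and 854 in the clones of batch 2, a rise of 1.58 (SE 0.14, limma adjusted p = 0.032). In batch 1 the order turned, with 753, 733 and 519 TPM in the positive lines and 172, 340 and 124 in the clones. MT-TY rose by 1.32 in batch 2 (limma adjusted p = 0.0491), from 333, 329 and 459 TPM to 997, 865 and 915, and batch 1 had 1079, 794 and 465 TPM against 346, 286 and 325. The change between batches was 3.34 for MT-TA and 2.53 for MT-TY (limma adjusted p = 0.514 and 0.619).

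Other mitochondrial tRNA genes were read beside them, and none of these passed the threshold. Of all 22, 45.5% were apart upward and 9.1% downward in batch 2, beside 12.6% and 7.9% of all genes. Of the 8 mitochondrial tRNA genes on the minus strand, 6 were apart upward in batch 2 and 5 of these were apart downward in batch 1, with medians of 1.35 and -1.21. The other 2 overlapped in batch 2, and 1 of them, MT-TS1, had a difference of 0.53 there and was apart upward in batch 1 by 2.64 (SE 1.79). In batch 1 MT-TS1 was at 0 TPM in sgNTC clone 2, the library that stood apart. The parental line and sgNTC clone 1 held 71.9 and 61.1 TPM, and knockout clones 1 to 3 held 72.7, 149 and 97.8. Of the 14 on the plus strand, 4 were apart upward and 2 downward in batch 2, and the medians were 0.13 and 0.04. MT-TI was the 1 plus-strand gene apart in opposite directions, and it overlaps the minus-strand gene MT-TQ by its last bases. MT-TW, the plus-strand gene next to MT-TA, overlapped in both batches, with differences of 1.25 and 0.13, and differed by -0.21 in batch 2 without the parental line. The sources used here do not give the strand setting of the counting. The 13 mitochondrial protein-coding genes had a median of 0.07. Both lists and the split by strand were chosen after values were seen.

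**Figure D2:**
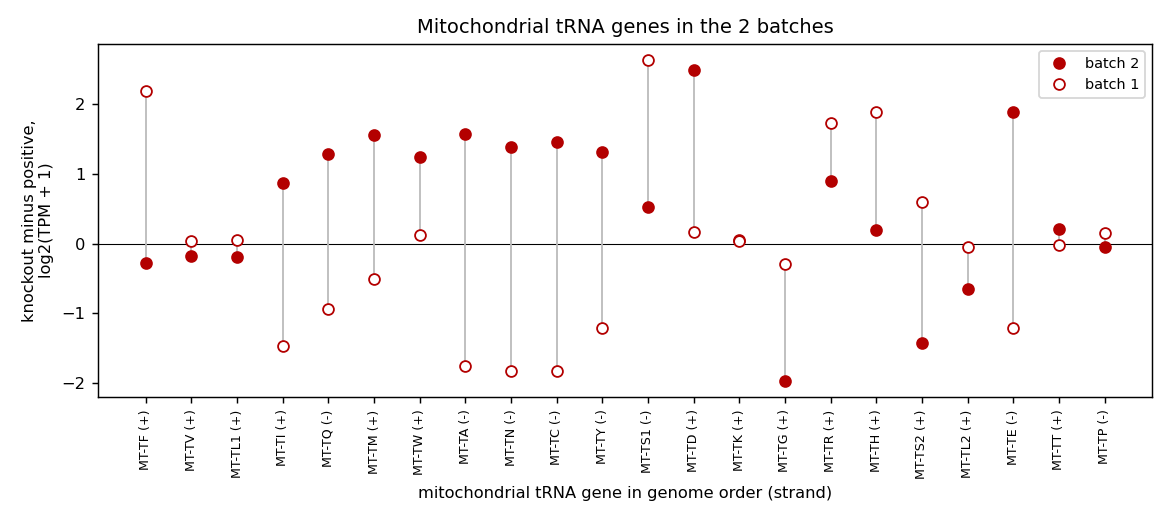
Difference between knockout and positive lines on the log2(TPM + 1) scale (y axis) for the 22 mitochondrial tRNA genes in genome order (x axis, strand in brackets), with batch 2 filled and batch 1 open. The run MT-TA, MT-TN, MT-TC and MT-TY is above 1 in batch 2 and below -1 in batch 1.

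Set against batch 1, the 26 calls separated by class. Of the 26 genes, 12 were apart in the same direction in batch 1 (46.2%), 4 in the opposite direction and 10 overlapped. Leaving out each batch 1 library gave 46.2% to 53.8%, the highest without sgNTC clone 2. Groups that are apart stay apart with 1 library fewer, so this share could not fall and its stability was not tested. Over all genes kept, 770 were apart in the same direction in both batches (4.35%) and 62 in opposite directions (0.35%). All 26 calls were apart in batch 2, so the closer comparison is with the 3637 genes apart there. Of these, 21.2% were apart in the same direction in batch 1 and 1.70% in the opposite direction. In batch 1 alone 2429 genes were apart (13.7%), 1274 higher (7.2%) and 1155 lower (6.53%). The same limma test on batch 1 called 0 genes (0%), with 1329 at an unadjusted p under 0.05. The limma test of the change between batches also called 0 (0%), with 790 at an unadjusted p under 0.05. A difference called in batch 2 alone is therefore not shown to differ from batch 1.

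**Figure D3:**
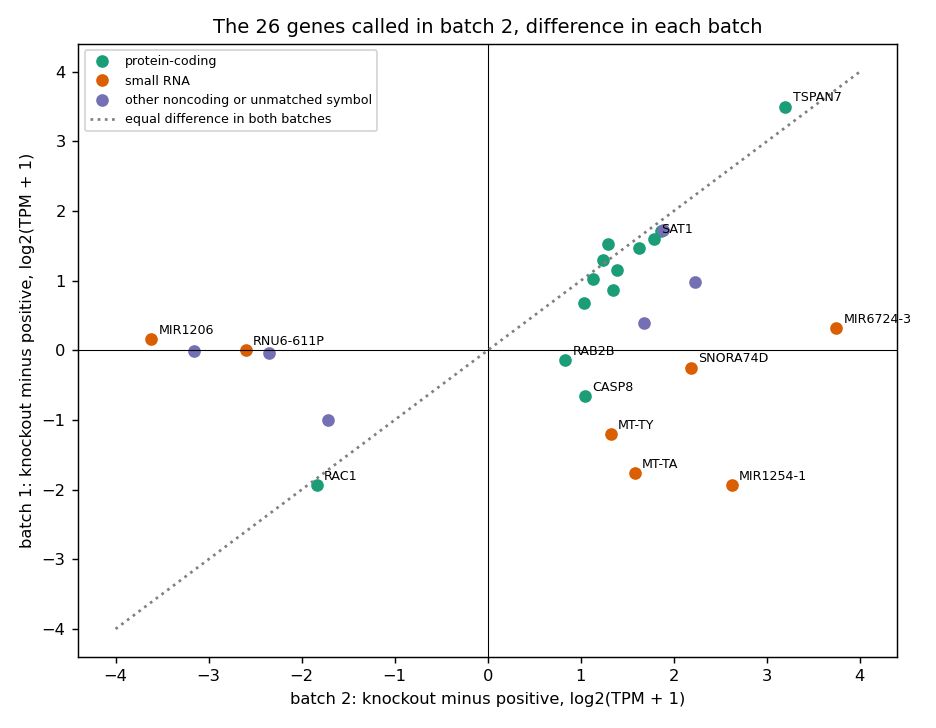
Difference between knockout and positive lines for the 26 genes called in batch 2, with batch 2 on the x axis and batch 1 on the y axis, both log2(TPM + 1). Most protein-coding genes lie near the dotted line of equal difference, while the small RNA genes lie near 0 or on the other side in batch 1.

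Interferon stimulated genes had the highest median of the 36 lists in batch 2, 0.81, although none of its 28 kept members passed the threshold. It also ranked first in 8 of 12 other settings, and the mitochondrial tRNA list did in the other 4, which were a pseudocount of 5 (0.55 against 0.48), no level filter (0.70 against 0.61) and leaving out sgNTC clone 1 (0.89 against 0.80) or sgNTC clone 2 (0.81 against 0.80). Without the parental line the mitochondrial tRNA median was 0.24. Of the 28 interferon genes kept, 27 had positive differences and 20 were apart upward (71.4%), beside 12.6% of all genes. Many of these genes are induced through STAT and IRF factors and sense or restrict viruses. GBP2, a guanylate-binding protein, had the smallest p, with 1.34, 0.857 and 0.748 TPM in the positive lines and 5.92, 5.22 and 4.51 in the clones, a difference of 1.66 (limma adjusted p = 0.0613). IFIT1, which binds viral RNA ends, was at 3.22, 5.79 and 4.98 TPM against 17.0, 19.6 and 35.6, a difference of 2.11 (limma adjusted p = 0.0853). DDX58, the RNA sensor RIG-I, was at 5.34, 4.85 and 2.76 TPM against 13.4, 12 and 17.6, a difference of 1.55 (limma adjusted p = 0.105). No clone overlapped the positive lines in these 3 genes.

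The clones were unequal. Relative to the mean of the positive lines, the list's median was 0.73 in clone 1, 0.64 in clone 2 and 1.44 in clone 3, and clone 3 held the highest of the knockout values in 19 of 28 genes (67.9%), against 36.7% of all genes. The list's median in batch 1 was 0.95, and 12 of 28 members were apart upward in both batches, beside 509 of all 17699 genes. As many members are low, the median depended on the scale and was 0.48 at pseudocount 5 and 1.32 over members of at least 5 TPM.

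Class I antigen presentation genes, which carry peptides to the cell surface, had a median of 0.49 (0.30 with a pseudocount of 5). Of the 20 kept, 12 were apart upward (60%, beside 12.6% of all genes) and 0 downward, and PSMB8 was the 1 called. PSMB8, a catalytic subunit of the immunoproteasome, was at 17.7, 19.7 and 16.1 TPM in the positive lines and 63.9, 45.1 and 64.8 in the clones, a rise of 1.63 (SE 0.18, limma adjusted p = 0.0491). B2M, the light chain shared by class I molecules and named here after its values were seen, was at 870, 677 and 746 TPM against 1498, 1185 and 1439.9, with no overlap and a difference of 0.85 (limma adjusted p = 0.0898). Among leukocyte markers PTPRC and CD3E were at 0 in all 6 libraries, and the 6 markers summed to 1.29 to 2.29 TPM in the clones and 0.342 to 0.822 in the positive lines. Of this CD14 made up 1.59, 1.29 and 2.29 TPM in clones 1 to 3. The part of that difference in these results was not tested.

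**Figure D4:**
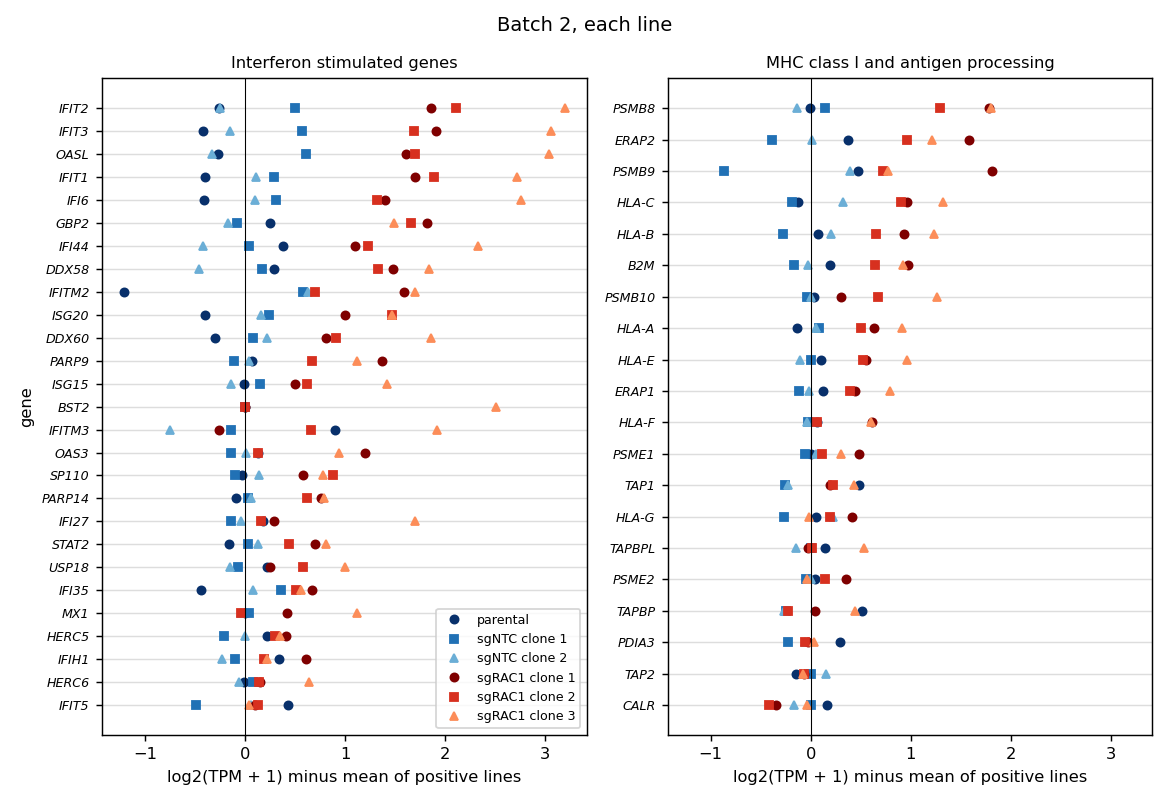
Kept members of the interferon list (27 of the 28 drawn) and of the class I list in batch 2, with the x axis giving log2(TPM + 1) of each line minus the mean of the 3 positive lines. Clone 3 (light red triangles) is farthest right for most interferon genes, while the class I genes spread less.

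Promoters of these lists were searched for GAAANNGAAA, the core shared by interferon response elements, on both strands within 250 bases before to 50 after the RefSeq start (GRCh38.p14). Of all 27305 genes with a promoter entry 4.38% held it in any entry, while list members were read at their first entry only. Of the 22 interferon list members with an entry 16 did (72.7%), and of the 17 class I members 9 did (52.9%). The interferon list was chosen as interferon stimulated genes, so its share describes the list and not the knockout. Apart and overlapping members were not compared. GBP2, DDX58 and PSMB8 were not among the members found with the motif, as they lacked it or had no entry. The stretches below show it in capitals, either as written or as its reverse complement TTTCNNTTTC, in 3 genes whose batch 2 groups were apart and, last, in IFIT5, whose groups overlapped with a difference of 0.09.
IFIT1: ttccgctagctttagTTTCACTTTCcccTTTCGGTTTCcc
ISG20: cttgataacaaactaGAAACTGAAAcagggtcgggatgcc
B2M: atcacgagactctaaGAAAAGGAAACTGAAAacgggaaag
IFIT5: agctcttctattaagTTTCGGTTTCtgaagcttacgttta
The IFIT1 stretch lies at chr10:89392492-89392531, ISG20 at chr15:88638932-88638971, B2M at chr15:44711358-44711397 and IFIT5 at chr10:89414508-89414547, each written 5′ to 3′ on the gene's strand, which is the plus strand for all 4. These genes were chosen after their values were seen, and IFIT5 shows that the motif was present in a member whose groups did not separate.

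Epithelial junction genes, which hold neighbouring cells together, were higher in the clones as a group without any passing the threshold. Of 26 kept members 24 had positive differences, and the median was 0.50. Of the members 14 were apart upward (53.8%, beside 12.6% of all genes) and none downward. CDH3, the adhesion receptor P-cadherin, was at 14.2, 15.2 and 21.9 TPM in the positive lines and 56.9, 52.0 and 99.0 in the clones, a difference of 1.92 (limma adjusted p = 0.0825). SPINT1, an inhibitor of the protease matriptase, was at 0.547, 0.425 and 0.442 TPM in the positive lines and at 3.14, 3.26 and 4.47 in the clones. EPCAM, an epithelial adhesion molecule, was at 25.9, 21.3 and 21.5 TPM against 50.7, 39.5 and 48.3. All 3 were apart upward, and the list's medians were 0.54, 0.44 and 0.63 in clones 1 to 3.

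Matrix and adhesion genes were counted in 4 further lists, and none of the genes named from them passed the threshold. The shares apart upward were 45.5% for laminins, 45.5% for integrins, 43.8% for immunoglobulin-type genes and 50% for proteases. Over all genes the share was 12.6%. Among 11 laminin and basement membrane genes 7 had positive differences and 4 negative ones, and 5 were apart upward and 1 downward, led by LAMB1, a laminin chain, at 11.7, 13.6 and 12.8 TPM against 27.7, 27.2 and 34.4, a difference of 1.16 (limma adjusted p = 0.0558). Of 11 integrin subunits 5 were apart upward and none downward, including ITGA2 of a collagen receptor at 10.6, 5.03 and 3.30 TPM against 11.8, 14.4 and 15.9. In 16 immunoglobulin-type adhesion genes 7 were apart upward and 1 downward. The lower 1 was CADM1, at 9.91, 9.14 and 11.5 TPM against 3.84, 4.96 and 4.35, while MPZL2 was at 41.0, 43.5 and 24.3 TPM against 157, 147 and 300. The matrix protease list had 7 of 14 apart upward, with a median of 0.42 (0.16 with no level filter).

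Lysosomal and sterol synthesis genes had positive medians, and none passed the threshold. Of 43 lysosomal genes, a list chosen after values were seen, 37 had positive differences, with a median of 0.36. In this list 25 were apart upward (58.1%, beside 12.6% of all genes) and 2 downward. PSAP, the precursor of the saposins that help degrade sphingolipids, was at 555, 506 and 613 TPM in the positive lines and 984, 966 and 1221 in the clones, a difference of 0.92 (limma adjusted p = 0.0624). CTSA, a lysosomal carboxypeptidase, was at 45.9, 42.5 and 46.5 TPM against 83.4, 78.0 and 96.6. Of 31 sterol and fatty acid synthesis genes 28 had positive differences, 17 were apart upward (54.8%) and 1 downward, with a median of 0.35. The sterol list was weaker in batch 1, with a median of 0.13. None of its members was apart upward in both batches, beside 509 of all 17699 genes. The change between batches was not tested for lists.

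**Figure D5:**
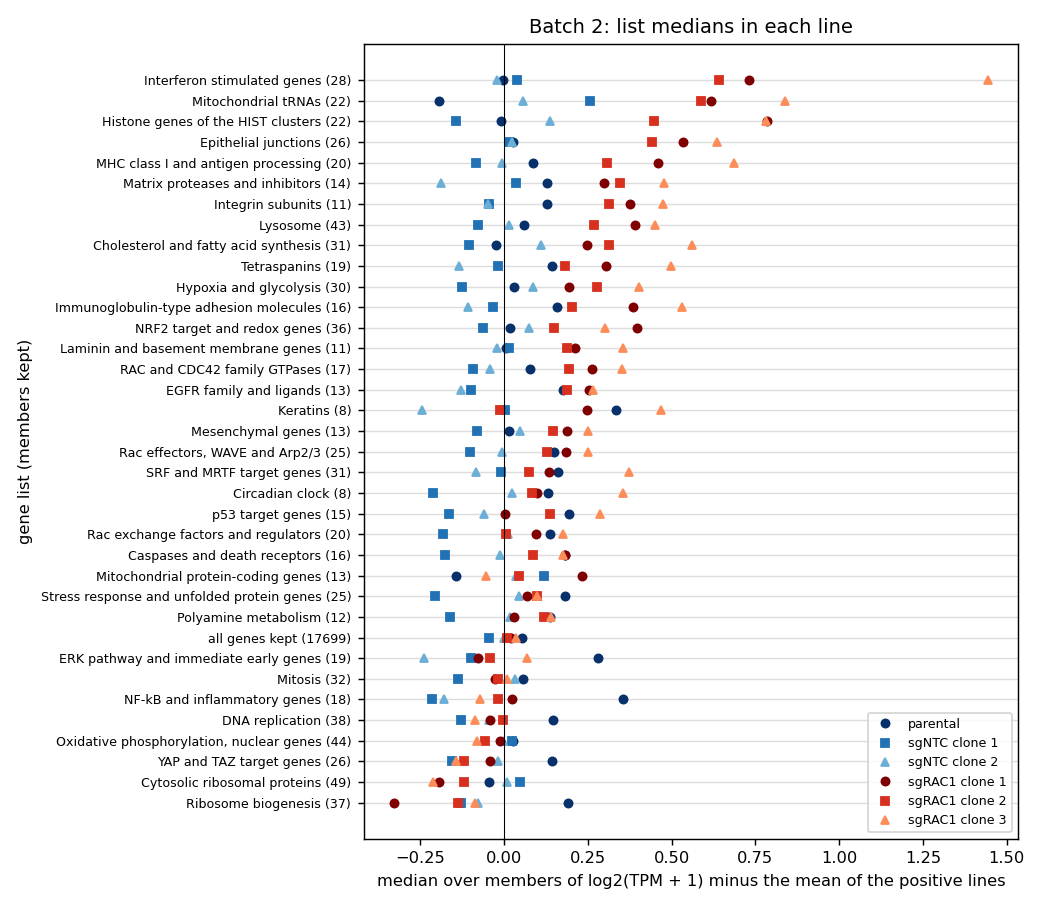
Median over the kept members of each gene list of log2(TPM + 1) minus the mean of the positive lines (x axis), 1 point per line in batch 2, for lists with at least 8 members kept. Interferon genes in clone 3 reach 1.44. All 3 clones lie below 0 for the cytosolic ribosomal protein and ribosome biogenesis lists, among others.

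Ribosomal protein genes and ribosome biogenesis genes were lower in the clones by small amounts, and none passed the threshold. Of 49 ribosomal protein genes 23 were apart downward (46.9%, beside 7.9% of all genes) and 0 upward, with a median of -0.17. In batch 1 the list's median was -0.06, with 6 of 49 members apart downward and 1 upward, beside 6.53% and 7.2% of all genes. Apart downward in both batches were 5 of 49 members, beside 261 of all 17699 genes. RPS13 was at 766, 698 and 700 TPM in the positive lines and 560, 583 and 545 in the clones, a difference of -0.36. RPL27 was at 1667, 1692 and 1715 TPM against 1370, 1429 and 1379. Of 37 ribosome biogenesis genes 10 were apart downward (27.0%) and 0 upward. Their median was -0.20 (-0.10 without the parental line, -0.11 without clone 1 and -0.13 with a pseudocount of 5). DIMT1, a ribosomal RNA methyltransferase, was at 183, 113 and 93.4 TPM against 64.6, 72.7 and 77.1, so the parental line stood highest. Replication genes (median -0.05) and mitosis genes (median -0.02) stayed near the median of all genes. Of 32 mitosis genes 5 were apart upward, among them CDC25C and ANLN, and 1 was apart downward. The upward share, 15.6%, was near the 12.6% of all genes, and the downward share was 3.1%, beside 7.9%. The lower 1, CDC20, the activator of the anaphase-promoting complex, was at 500, 487 and 445 TPM against 300, 344 and 345.

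Within the family of GTPases that holds RAC1 and CDC42, RAC1 was the 1 called member of 17 kept. RAC2, its close relative best known in blood cells, was at 3.32, 4.33 and 3.5 TPM in the positive lines and 7.59, 5.76 and 8.52 in the clones, a difference of 0.80 (limma adjusted p = 0.177) that was apart in both batches. RAC3 ran from 0.342 to 2.24 TPM over the 6 lines and overlapped. CDC42, which drives filopodia, was at 203, 173 and 189 TPM against 237, 211 and 221 in batch 2, a difference of 0.25, whereas in batch 1 it was apart downward by 0.39. RHOG, with a difference of -0.18, overlapped between the groups.

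The upstream genes named in the series title overlapped between the groups. EGFR was at 17.6, 12.2 and 12.7 TPM in the positive lines and 18.3, 17.6 and 14.5 in the clones, a difference of 0.24 (95% interval -0.19 to 0.68, limma adjusted p = 0.597). VAV2 was at 2.84, 2.50 and 3.86 TPM against 2.71, 1.28 and 2.62, a difference of -0.36 (95% interval -1.0 to 0.27, limma adjusted p = 0.594), and VAV3 was listed at 0 in all 12 libraries. Of 20 Rac exchange factors and regulators 1 was apart in each direction (5% each). Of 25 effectors, WAVE and Arp2/3 genes 8 were apart upward (32%) and 1 downward (4%). Over all genes 12.6% were apart upward and 7.9% downward. The medians of the 2 lists were 0.08 and 0.16 (0.10 for the effectors with a pseudocount of 5). None of these genes passed the threshold. Among 19 genes of the ERK pathway and immediate early response 1 was apart in each direction (5.3% each), with a median of 0.01.

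Some of the largest differences that did not pass the threshold came with uneven lines. SERPINB5, the serpin maspin, was at 0.82, 0.219 and 0.132 TPM in the positive lines and 2.28, 18.3 and 36.0 in the clones, a difference of 3.29 (SE 0.83, limma adjusted p = 0.187). DNAJC12, a co-chaperone, was at 0.609, 1.01 and 0.246 TPM against 44.3, 3.44 and 8.14, with clone 1 far above clones 2 and 3. KYNU, an enzyme of tryptophan breakdown, was at 10.24, 1.74 and 0.919 TPM against 33.5, 19.6 and 27.1. The calcium-binding S100A9 was at 0, 0 and 3.62 TPM against 12.6, 7.37 and 26.6, and the antimicrobial peptide gene DEFB1 at 0, 0.90 and 0 TPM against 17.9, 3.81 and 10.0. Downward, GSTP1, a glutathione transferase, was at 57.4, 63.4 and 129 TPM against 56.1, 19.7 and 0.50, so clone 1 lay next to the parental line and clone 3 was near 0. In all 6 of these genes every clone lay on one side of every positive line.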

How the data were processed

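RNA from 12 libraries of DU145 lines was sequenced, and the 6 libraries of batch 2 were compared here, 3 knockout and 3 RAC1-positive lines. Per the submitters' processing notes, the tools were STAR 2.6.1d, bcl2fastq and DESeq2, and the build was GRCh38. How reads were counted, with which annotation and strand setting, was not given in the sources used here. TPM per gene and library, as the authors deposited it in 1 table, is scaled to transcript length and library total and keeps no depth. The same deposited table holds the authors' log2 fold changes and adjusted p-values for 15140 genes, with the column names that DESeq2 writes.

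From these TPM values, log2(TPM + 1) was fitted with limma 3.58.1 in R 4.3.3, with variances that follow mean expression, equal library weights, two-sided tests and Benjamini-Hochberg adjustment over 17699 genes at 0.05. With a pseudocount of 1, folds of genes at 1 TPM or less come out too small. The change between batches was fitted on each line's batch 2 value minus its batch 1 value. The script was tested on simulated data. No 2 libraries held identical values. Positions came from GENCODE release 29 (GRCh38), which matched 70.7% of the genes kept, and promoters from RefSeq.

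Named genes followed a rule: RAC1, RAC2, RAC3, CDC42, RHOG, VAV2, VAV3 and EGFR, every called gene up to 25 per direction, the 12 largest apart but uncalled differences per direction with a group mean of at least 5 TPM, and per list up to 4 called members or else the 3 with the smallest p. Outside it, and chosen after values were seen, are SMOX, CSK, CASP4, CASP6, BID, B2M, ISG20, IFIT5, MT-TN, MT-TC, MT-TI, MT-TQ, MT-TS1 and MT-TW. The comparison and its 32 gene lists were chosen with earlier results of these data known, and 4 lists were added later. A few genes that the rule or the marker lists hold are not reported here.

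Alternatives covered the pseudocount, level filter, scaling, trend, library weights, each library left out and both batches together.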

Additional observations from a re-analysis of the deposited data

Results flagged for a closer look

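In 4 called genes all 3 knockout lines lay above all 3 positive lines in batch 2 and below them in batch 1. The change of the difference between batches, on the log2(TPM + 1) scale, was 3.34 for MT-TA, 2.53 for MT-TY, 1.70 for CASP8 and 0.979 for RAB2B. The limma test of this change did not pass for any of them (adjusted p = 0.514, 0.619, 0.514 and 0.641).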

How the results depend on the processing

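The count of 26 called genes was 18 to 37 with a pseudocount of 0.1, a filter of 5 TPM, upper quartile scaling or no variance trend. It was 4 with a pseudocount of 5, 1 with no level filter, 14 with median-of-ratios scaling and 257 with limma array weights. Leaving out 1 library gave 0 to 2. A fit with fewer lines also has less power, so dependence on single lines cannot be told apart from lost power. With the mean of both batches per line it was 1, and with both batches and a replicate block 337, of which 11 were among the 26. That fit counts each line once per batch, so its p-values treat 6 lines as 12 samples. All 6 libraries carry the same replicate number, so the block pairs nothing within batch 2. RAC1 differed by -1.84 with no level filter (limma adjusted p = 0.0808) and by -2.00 to -1.72 with 1 library left out, no longer passing the threshold in either case, and by -1.89 with the replicate block (limma adjusted p = 3.63e-05), against limma adjusted p = 0.0441 on the mean of both batches per line. Differences of named genes kept their sign except with 1 library left out, where IFIT5 ran from -0.16 (without sgNTC clone 1) to 0.30 and MT-TW from -0.21 (without the parental line) to 2.15. Of 432 recomputed list medians 35 moved by more than the spread between lines, and 17 changed sign, in 10 lists whose medians were at most 0.11 from 0. Ranges over the 12 settings with list medians were 0.48 to 1.32 for interferon genes, 0.39 to 0.58 for epithelial junctions and -0.22 to -0.15 for ribosomal proteins. Depth is unknown, and low TPM values rest on few reads. With 3 clones, 2 of them from 1 guide, a gene that differs in all clones by descent cannot be told apart from one that differs through RAC1.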

Other observations

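Histone genes of the HIST clusters, many of them made for DNA packaging in S phase, had a median of 0.56 in batch 2, which was 0.34 with a pseudocount of 5 and 0.87 over members of at least 5 TPM. Of 22 kept, 12 were apart upward (54.5%) and 3 downward (13.6%), beside 12.6% and 7.9% of all genes, and none passed the threshold. HIST1H2BD was at 8.16, 7.91 and 10.8 TPM in the positive lines and 28.5, 21.6 and 22.6 in the clones, and HIST1H2BK at 263, 255 and 233 TPM against 538, 376 and 477. Clone 1 was the highest of the 3 clones in 16 of the 22 genes, whereas clone 3 was highest in most interferon genes. Near-identical histone copies can share reads, so single members are uncertain.

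Of the metabolic lists not yet described, 2 had positive medians and 1 a negative one. Over all genes 12.6% were apart upward and 7.9% downward. Of 36 NRF2 target and redox genes 13 were apart upward (36.1%) and 4 downward (11.1%), with a median of 0.28 (0.19 without sgNTC clone 1). GPX2, a glutathione peroxidase of epithelia, was at 0.862, 0.574 and 0 TPM in the positive lines and 7.41, 3.65 and 11.5 in the clones (limma adjusted p = 0.114). Of 30 hypoxia and glycolysis genes 9 were apart upward (30%) and 2 downward (6.7%). Their median was 0.31 (0.16 with a pseudocount of 5 and 0.18 without sgNTC clone 1). LDHA, which makes lactate, was at 780, 642 and 792 TPM against 947, 1013.5 and 1084. Of 44 nuclear genes of oxidative phosphorylation 3 were apart upward (6.8%) and 8 downward (18.2%), with 29 negative differences and a median of -0.05.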
